A study of Homo sapiens with 8 samples.

Results

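The polarity complexes of epithelial cells are 3 protein assemblies that divide the plasma membrane into an apical and a basolateral part. The genes described were those for the PAR complex (PARD3, PARD6A, PARD6B, PRKCZ and PRKCI), the Crumbs complex (CRB3 and PALS1, formerly MPP5) and the Scribble module (LLGL2, SCRIB and DLG1). They were chosen by name, and every feature, that is every array spot, whose annotation gave 1 of these symbols or a former one was taken. Of the 44290 features in the data, 42142 had a value on every array, and those with 1 symbol gave 17969 genes. The choice by name gave 10 of these genes, with 17 features. Each gene had 1 to 3 features: 4 genes had 1, 5 had 2 and DLG1 had 3.

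The PAR and Crumbs complexes cooperate, and both act against the Scribble module. The PAR proteins with atypical protein kinase C, and Crumbs with its scaffold PALS1, mark the apical membrane and the tight junction region. Scribble, Dlg and Lgl mark the basolateral side, so the module is not itself apical, and atypical protein kinase C keeps Lgl off the apical membrane by phosphorylating it. In the gut, these proteins are known for placing the tight junction and the brush border.

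RNA came from Caco-2 cells, a human colorectal adenocarcinoma line that differentiates into a polarised monolayer resembling intestinal epithelium, grown for 18 days. Six-well plate cultures then received control medium (M199 with non-essential amino acids) or the same medium with L. plantarum MB452, a lactic acid bacterium, at an optical density of 0.9, for 10 h. There were 2 pools in each group, A and B, each made of RNA from 3 wells, so n = 2 and no standard deviation rests on more than 2 pools. Both groups were of the same cell line and the controls received no bacterium of another kind, so a response to MB452 could not be separated from one to bacteria in general. On each slide 1 pool carried Cy5 and a reference of RNA from all wells carried Cy3, and the slide was scanned with a high and a low detector voltage.

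A value below is a log2 ratio of a pool over the reference, centred on the median of its scan. A value of 0 is the median ratio of its scan and no value compares 1 gene with another. As every pool carried Cy5, a dye effect on a feature cannot be told from its level against the reference. A log2 fold change is the mean of the MB452 pools minus the mean of the control pools, after the scans of a slide, and for a gene its features, were averaged. The threshold was that of the study, a fold change over 1.2 (0.26 on the log2 scale) with an unadjusted moderated p under 0.05 in limma, with the p adjusted over all genes or features (Benjamini-Hochberg) beside it. These p-values measure only the spread between these pools, which may be technical in part. In such bulk RNA, fewer cells of a type and less RNA per cell cannot be told apart.

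Between 42184 and 42308 features had a value in each scan. In every scan 1 value was repeated over many features, 1201 to 1534 for a high scan and 310 to 397 for a low one, as saturated spots would give, and none of the 17 polarity features had it in any scan. Over all features the control pools correlated less with each other (r = 0.40) than the MB452 pools did (r = 0.67). Control pool A correlated more with MB452 pools A and B (r = 0.61 and 0.50) than with control pool B. For control pool B the values with MB452 pools A and B were 0.45 and 0.38. By this measure the pools did not group by treatment. Of the markers of intestinal epithelium, 11 genes had features, and HNF4A had none annotated to it alone. Of the 11, 6 (EPCAM, CDH1, KRT8, KRT18, KRT19 and VIL1) had a feature repeated in the high scan on all slides. KRT20, CDX2, ALPI, SI and ANPEP had no such feature. None of 8 markers of leukocytes, endothelium and mesenchyme (PTPRC, CD3E, CD14, PECAM1, VIM, COL1A1, COL1A2 and ACTA2) had such a feature, and no marker of either list passed the threshold (log2 fold changes of -0.24 to 0.049 and of -0.20 to 0.055). EPCAM, CDH1 and KRT19, with 1 feature each, all had the same log2 fold change of -0.13, which is thus no measurement of these genes. Features with the repeated value also enter the means of KRT8, KRT18 and VIL1. Ratios to a reference of the same cells carry no level, so the markers could not be checked further than this.

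None of the 10 polarity genes passed the threshold, while 1.91% of all genes did. The study, which combined the scans of a slide in another way, listed PARD6B and PALS1 as differentially expressed at this threshold. Both were higher with MB452 in the study, and its supplement also names PRKCZ among the genes of the enriched tight junction pathway. With high scan values here, and low scan values for saturated features, the log2 fold change was -0.19 for PARD6B and 0.19 for PALS1. Whether the way of combining scans accounts for the unlike calls was not tested. With both scans averaged, the genes with the largest log2 fold changes were PRKCZ (0.23), LLGL2 (0.19), PRKCI (0.17) and PALS1 (0.16). Of the 10 log2 fold changes 8 were above 0, with a median of 0.077, while 45.4% of all genes were above 0 and their median was -0.0093. With control pool A left out the median of the 10 was 0.14, and with pool B of the controls left out it was 0.029. Unadjusted p was under 0.05 for LLGL2 and PALS1, 2 of 10 genes, and for 6.49% of all genes. No polarity gene had an adjusted p under 0.73, and over all genes none had one under 0.05 (the lowest was 0.18), although 1166 had an unadjusted p under 0.05.

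In 5 of the 10 genes (PRKCZ, PRKCI, PALS1, LLGL2 and DLG1) both MB452 pools lay above both control pools, as they did in 17.6% of all genes. In PARD6A and CRB3 both lay below, as in 19.5% of all genes. The groups overlapped in PARD3, PARD6B and SCRIB. By complex, the median log2 fold change was 0.067 for the PAR complex, with 4 of 5 genes above 0. It was 0.057 for CRB3 and PALS1, which lay on either side of 0, and 0.086 for the Scribble module, with 3 of 3 above 0.

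**Figure D1:**
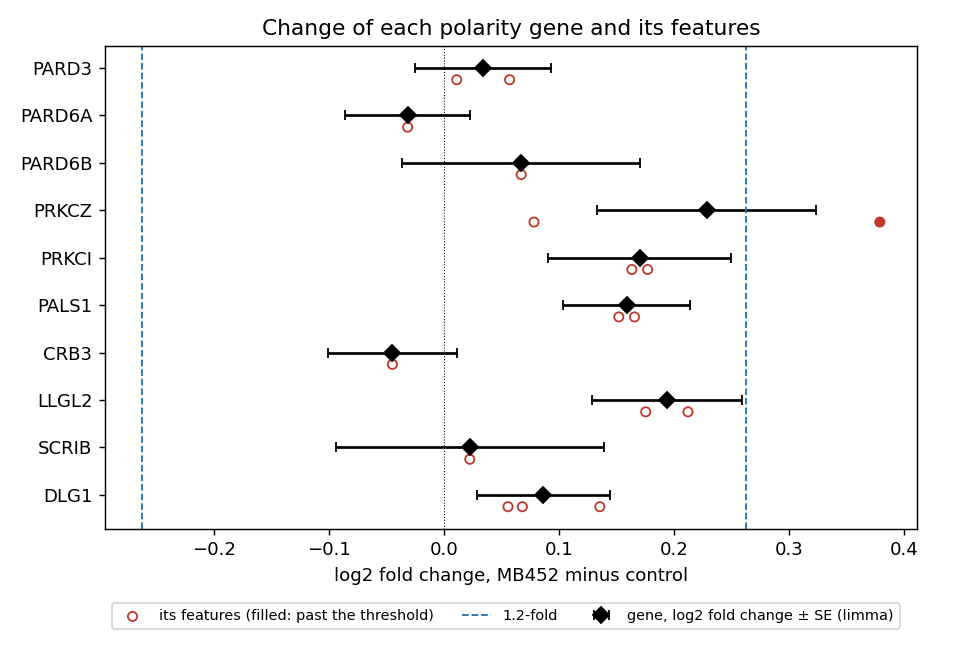
Log2 fold change of each polarity gene, MB452 minus control, on the horizontal axis (black diamonds, with bars of 1 standard error from limma), and of each of its features (red circles). The dashed lines mark a 1.2-fold change. All 10 genes lie inside the lines, from CRB3 at -0.045 up to PRKCZ at 0.23, and the 1 filled circle is the feature of PRKCZ that passed the threshold, at 0.38.

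At the level of features, 1 of 17 passed the threshold, a feature of PRKCZ that was higher with MB452, and 2.1% of all features passed. Of the 17, 15 had a log2 fold change above 0, against 47.7% of all features. Both MB452 pools lay above both control pools in 8 features (18.1% of all features) and below them in 2 (17.4%). When the scans were kept apart, 5 features had all 4 MB452 scans above all 4 control scans: the first of PRKCI, the second of PALS1, both of LLGL2 and the first of DLG1. This pattern was found in 5.48% of all features. No polarity feature had all MB452 scans below all control scans, as 5.68% of all features did.

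**Figure D2:**
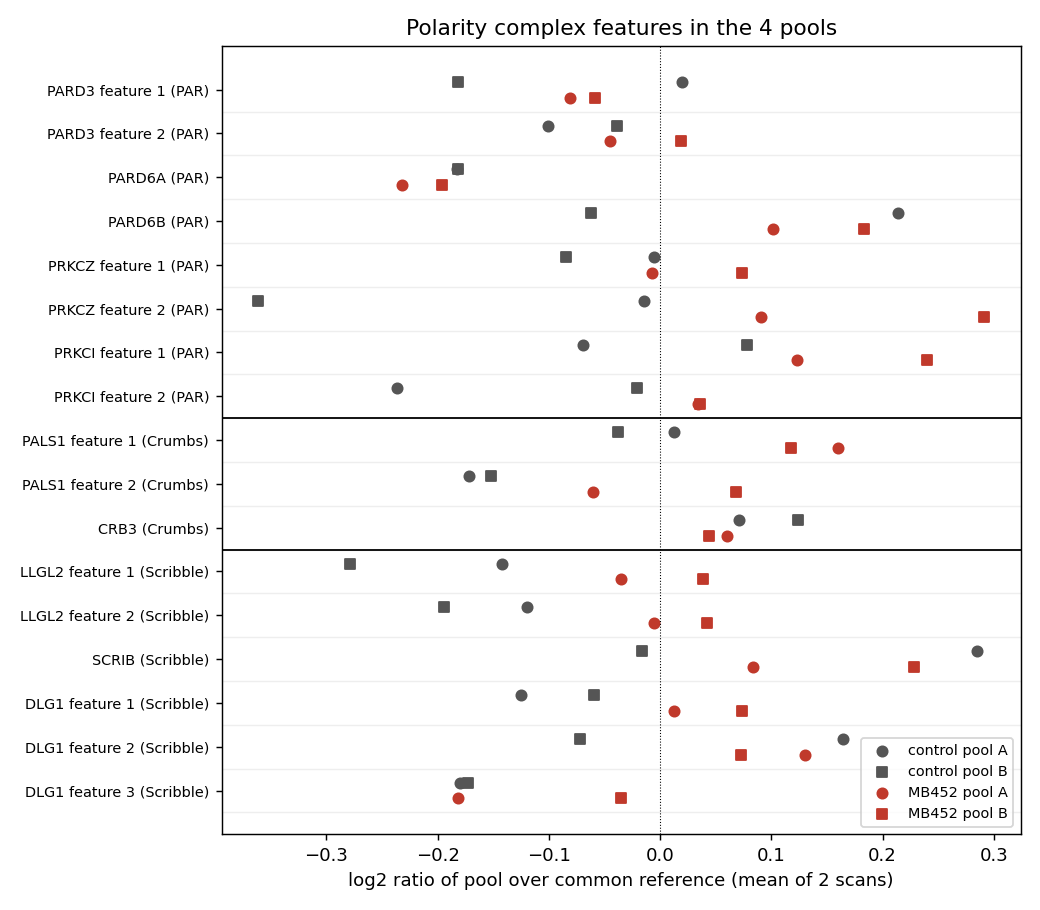
Log2 ratio of each pool over the common reference, mean of the high and low scan, for the 17 features, grouped by complex (PAR, Crumbs, Scribble). Grey marks are the control pools and red marks the MB452 pools, with circles for pool A and squares for pool B. The red marks lie to the right of both grey marks in 8 features and to the left of both in PARD6A and CRB3.

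PRKCZ encodes protein kinase C zeta, 1 of the 2 atypical kinases of the PAR complex. As the mean of its features the gene had values of -0.010 and -0.22 in control pools A and B, and of 0.042 and 0.18 in MB452 pools A and B. The MB452 pools were higher and the groups did not overlap, with control pool B lowest. The log2 fold change was 0.23 (SE 0.095, adjusted p = 0.78), which missed the threshold both in size and in its unadjusted p.

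The features of PRKCZ differed from each other. The first, annotated to the mRNA AB007974, had -0.0058 and -0.085 in control pools A and B and -0.0075 and 0.073 in MB452 pools A and B. Its log2 fold change was 0.078 (SE 0.068) and the groups overlapped, MB452 pool A lying just under control pool A. In the high scan its values were -0.012 and -0.0067 in the controls and -0.029 and 0.11 in the MB452 pools. Its low scan values were -0.00017 and -0.16 in the controls and 0.014 and 0.040 in the MB452 pools. Only MB452 pool B of the high scan and control pool B of the low scan stood away from the rest.

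The second feature, annotated to the PRKCZ transcript NM_002744, was the one past the threshold. It had -0.014 and -0.36 in control pools A and B and 0.091 and 0.29 in MB452 pools A and B. The difference was 0.38 (1.30-fold, SE 0.14, adjusted p = 0.87). Control pool B was far below the other 3 pools, and without it the difference was 0.21. With an MB452 pool left out it was 0.48 (pool A out) or 0.28 (pool B out), and with control pool A left out 0.55. Each of these fits leaves 1 pool in a group, so only the size of the difference is given here. With the scans as separate values and the slide as a random block the difference was again 0.38 but its SE was 0.24 (adjusted p = 0.72), and the call was lost.

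The scans of this PRKCZ feature were far apart on the same slide. In the high scan the control pools had 0.20 and -0.24 and the MB452 pools 0.40 and 0.37. In the low scan the control pools had -0.23 and -0.48 and the MB452 pools -0.21 and 0.21. The MB452 pools were above the control pools in each scan taken alone, yet MB452 pool A went from the highest value of the high scan to the level of control pool A in the low scan. That gap of 0.61 between scans of 1 slide was larger than the largest gap of 99.3% of all features (their median was 0.12). The log2 fold change was 0.41 in the high scan, where it passed the threshold as higher as 2% of all features did. It was 0.35 in the low scan, where its unadjusted p was over 0.05.

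PRKCI encodes protein kinase C iota, the other atypical kinase. As a gene it had -0.15 and 0.029 in control pools A and B and 0.079 and 0.14 in MB452 pools A and B. The MB452 pools were again above both controls, with control pool A lowest here and not pool B as in PRKCZ. The log2 fold change was 0.17 (SE 0.080, adjusted p = 0.79), and was 0.16 in the high and 0.18 in the low scan.

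Both PRKCI features were annotated to the same transcript, NM_002740, and gave nearly equal differences, 0.18 (SE 0.083) and 0.16 (SE 0.089). The first had -0.028 and 0.068 in the controls and 0.10 and 0.26 in the MB452 pools in the high scan. Its low scan values were -0.11 and 0.089 in the controls and 0.15 and 0.22 in the MB452 pools. All 4 MB452 scans of this feature were above all 4 control scans. The second had -0.26 and -0.00026 in the controls and -0.00024 and 0.076 in the MB452 pools in the high scan. At the low voltage it had -0.22 and -0.040 in the controls and 0.068 and -0.0036 in the MB452 pools. Its groups were separated in each scan, although in the high scan control pool B and MB452 pool A were almost equal.

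PARD3 encodes the scaffold that brings the PAR proteins to the junction. The gene had -0.041 and -0.11 in control pools A and B and -0.063 and -0.020 in MB452 pools A and B. The groups overlapped and the log2 fold change was 0.034 (SE 0.059, adjusted p = 0.91). The high scan gave 0.00079 and the low scan 0.067.

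The first PARD3 feature (AF196185) had 0.10 and -0.16 in the controls and -0.060 and -0.052 in the MB452 pools in the high scan. Its low scan values were -0.062 and -0.21 in the controls and -0.10 and -0.065 in the MB452 pools. The control pools lay on either side of the MB452 pools in both scans, and the difference was -0.029 in the high and 0.051 in the low scan. The second (NM_019619) had -0.076 and -0.072 in the controls and -0.095 and 0.0087 in the MB452 pools in the high scan. The low scan gave -0.13 and -0.0068 in the controls and 0.0047 and 0.028 in the MB452 pools. Its groups overlapped in the high scan and were separated in the low scan, MB452 above.

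PARD6A and PARD6B encode adaptors that join atypical protein kinase C to PARD3 and to the small GTPase CDC42. PARD6A had 1 feature, with -0.18 in both control pools and -0.23 and -0.20 in MB452 pools A and B. The MB452 pools were lower by a log2 fold change of -0.032 (SE 0.055, adjusted p = 0.91). In the high scan the values were -0.22 and -0.20 in the controls and -0.18 and -0.21 in the MB452 pools, so the groups overlapped there. At the low voltage they were -0.15 and -0.16 in the controls and -0.29 and -0.18 in the MB452 pools. The sign of the difference changed with the scan, from 0.014 in the high to -0.077 in the low.

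PARD6B, with 1 feature, had 0.21 and -0.062 in control pools A and B and 0.10 and 0.18 in MB452 pools A and B. Its groups overlapped, and the log2 fold change was 0.067 (SE 0.10, adjusted p = 0.90). In the high scan the controls had 0.40 and 0.036 and the MB452 pools -0.00029 and 0.070. The low scan gave the controls 0.023 and -0.16 and the MB452 pools 0.20 and 0.30. The 2 scans thus pointed opposite ways, with a difference of -0.19 in the high and of 0.32 in the low scan. The low scan value passed the threshold as higher (adjusted p = 0.84 over all features of that scan), as did 1.11% of all features there. From the high to the low scan the ratio went down in both controls and up in both MB452 pools.

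**Figure D3:**
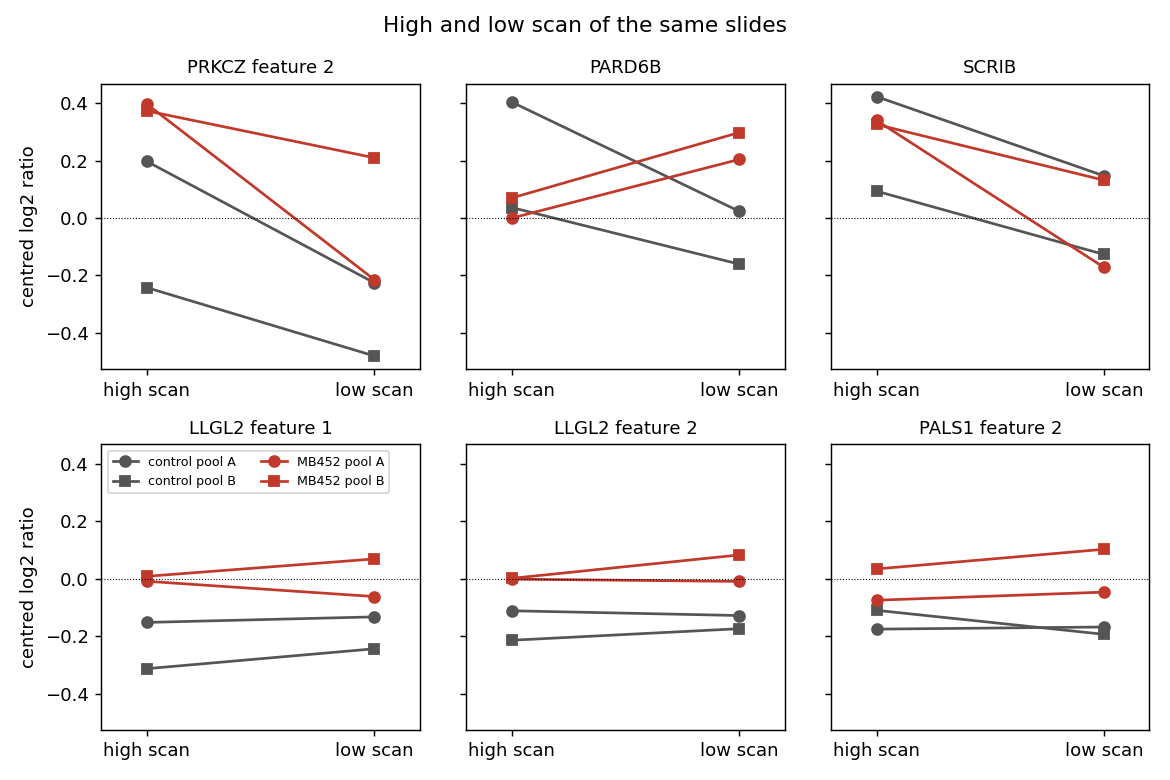
Centred log2 ratio (vertical axis) of 6 polarity features in the high and the low scan of the same slides, with 1 line for each pool (grey for control, red for MB452, circles for pool A and squares for pool B). For PRKCZ feature 2, PARD6B and SCRIB the lines are steep or cross, with gaps within a slide of up to 0.61, while for both LLGL2 features and PALS1 feature 2 the lines are nearly flat and all red points lie above all grey points.

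CRB3 and PALS1 are partners: CRB3 is the small transmembrane Crumbs protein of epithelia, and PALS1 is the scaffold that ties its tail to PATJ and to the PAR complex. The stretch around the start of each gene is shown with the E-box CAGGTG marked, the site of the repressors SNAI1 and ZEB1, which are known to silence CRB3 in tumour cells. The sequences are RefSeq promoter windows of GRCh38.p14, of 300 bases, from 250 before to 50 after the start of the gene, on the plus strand, with each CAGGTG of either strand (CACCTG on the printed one) in capitals.
CRB3, chr19:6464021-6464320: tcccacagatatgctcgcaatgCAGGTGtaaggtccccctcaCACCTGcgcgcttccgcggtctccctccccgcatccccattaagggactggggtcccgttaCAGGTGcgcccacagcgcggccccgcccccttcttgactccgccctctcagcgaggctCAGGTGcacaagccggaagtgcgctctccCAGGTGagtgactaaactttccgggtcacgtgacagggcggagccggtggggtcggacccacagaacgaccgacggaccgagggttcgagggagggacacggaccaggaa
PALS1, chr14:67241185-67241484: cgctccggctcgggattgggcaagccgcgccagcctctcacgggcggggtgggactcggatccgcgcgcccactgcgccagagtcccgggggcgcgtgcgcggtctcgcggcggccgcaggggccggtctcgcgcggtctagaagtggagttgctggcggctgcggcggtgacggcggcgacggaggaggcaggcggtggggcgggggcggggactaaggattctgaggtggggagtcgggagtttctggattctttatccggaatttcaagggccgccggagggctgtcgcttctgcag
The CRB3 window held the motif 5 times and that of PALS1 held it 0 times. Of 35116 such windows, 20.6% held it at least once and 0.094% held it 5 times or more. Windows were found for 6 of the 10 genes, 13 windows in all, of which 5 held the motif: those of CRB3 and PARD6A, 2 of 4 of PRKCZ and 1 of 5 of DLG1, while that of PRKCI did not. These are matches of letters, binding was not measured, and their part in any difference was not tested.

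CRB3, with 1 feature (NM_174881), had 0.071 and 0.12 in control pools A and B and 0.061 and 0.044 in MB452 pools A and B. The MB452 pools were below both controls, by a log2 fold change of -0.045 (SE 0.056, adjusted p = 0.87), which is within the error. In the high scan the controls had 0.026 and 0.14 and the MB452 pools 0.023 and 0.018. At the low voltage the controls had 0.12 and 0.11 and the MB452 pools 0.098 and 0.069. The groups were separated in each scan, though barely, and overlapped across scans.

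PALS1 had -0.080 and -0.095 in control pools A and B and 0.050 and 0.093 in MB452 pools A and B. The pools of each group lay close together and the groups were apart, with a log2 fold change of 0.16 (1.12-fold, SE 0.055, adjusted p = 0.74). The unadjusted p was under 0.05 and the change under the 1.2-fold minimum. The high scan gave 0.19 and the low scan 0.13.

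Both PALS1 features were annotated to NM_022474 and had differences of 0.15 (SE 0.062) and 0.17 (SE 0.071), each with an unadjusted p over 0.05. The first had -0.11 and -0.087 in the controls and 0.19 and 0.12 in the MB452 pools in the high scan. Its low scan values were 0.14 and 0.011 in the controls and 0.13 and 0.11 in the MB452 pools. Its groups were well apart in the high scan but overlapped in the low scan, where control pool A was as high as MB452 pool A. The second had -0.18 and -0.11 in the controls and -0.075 and 0.034 in the MB452 pools in the high scan. In the low scan it had -0.17 and -0.19 in the controls and -0.047 and 0.10 in the MB452 pools. All MB452 scans of the second feature were above all its control scans.

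LLGL2 encodes the Lgl protein of epithelia, a basolateral substrate of atypical protein kinase C. The gene had -0.13 and -0.24 in control pools A and B and -0.020 and 0.040 in MB452 pools A and B. Both MB452 pools lay above both control pools. The log2 fold change of 0.19 (1.14-fold, SE 0.065, adjusted p = 0.73) had an unadjusted p under 0.05 and was under the 1.2-fold minimum.

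The scans and features of LLGL2 gave like values. The difference was 0.20 in the high and 0.19 in the low scan, each with an unadjusted p under 0.05. The first feature (NM_004524) differed by 0.21 (SE 0.076) and the second (NM_001015002) by 0.18 (SE 0.065), and neither reached 1.2-fold. These were, beside the PRKCZ feature, the only polarity features with an unadjusted p under 0.05.

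In the high scan the first LLGL2 feature had -0.15 and -0.31 in the controls and -0.0088 and 0.0085 in the MB452 pools. Its low scan values were -0.13 and -0.24 in the controls and -0.062 and 0.069 in the MB452 pools. Its largest gap between the scans of a slide was 0.069, a small one, exceeding that of 15.5% of all features. The second had -0.11 and -0.21 in the controls and -0.0014 and 0.0014 in the MB452 pools in the high scan. At the low voltage it had -0.13 and -0.17 in the controls and -0.0093 and 0.083 in the MB452 pools. In both features all MB452 scans were above all control scans.

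DLG1 encodes a scaffold with PDZ domains at the lateral membrane. The gene had -0.047 and -0.10 in control pools A and B and -0.013 and 0.037 in MB452 pools A and B. The MB452 pools were above the controls, by a log2 fold change of 0.086 (SE 0.058, adjusted p = 0.82). It was 0.080 in the high and 0.093 in the low scan.

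The 3 DLG1 features were all above 0 but unlike in their spread. The first (AL831922) differed by 0.14 (SE 0.065, adjusted p = 0.87). It had -0.097 and -0.024 in the controls and 0.025 and 0.011 in the MB452 pools in the high scan, and -0.15 and -0.095 against 0.00038 and 0.14 in the low scan. All its MB452 scans were above all its control scans. The second, also annotated to AL831922, differed by 0.055 (SE 0.096, adjusted p = 0.93). Its control pools were far apart, with 0.17 and -0.054 in the high and 0.16 and -0.090 in the low scan, and the MB452 pools lay between them with 0.16 and 0.066, and 0.096 and 0.080. The third (NM_004087) differed by 0.068 (SE 0.074, adjusted p = 0.88). It had -0.24 and -0.13 in the controls and -0.18 and 0.019 in the MB452 pools in the high scan, and -0.12 and -0.21 against -0.18 and -0.089 in the low scan. In this feature, as in the second, the groups overlapped in both scans.

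SCRIB encodes the large scaffold that gives the module its name. With 1 feature (NM_182706), it had 0.28 and -0.017 in control pools A and B and 0.084 and 0.23 in MB452 pools A and B. The control pools spanned the MB452 pools, and the log2 fold change was 0.022 (SE 0.12, adjusted p = 0.98), the largest standard error of the 10 genes. In the high scan the controls had 0.42 and 0.094 and the MB452 pools 0.34 and 0.33. In the low scan the controls had 0.15 and -0.13 and the MB452 pools -0.17 and 0.13. MB452 pool A thus moved from a clearly positive to a negative value, a gap of 0.51 that exceeded the largest gap of 96.7% of all features.

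Across the 17 features the sign of the difference was the same in both scans for 13 and opposite for 4: PARD6A, PARD6B, SCRIB and the first feature of PARD3. In 3 features, the second of PRKCZ and those of PARD6B and SCRIB, the scans of some slide were over 1.2-fold apart, as were those of 11.1% of all features. In 7 features the MB452 pools were above the control pools in each scan taken separately, as in 8.24% of all features: the second of PRKCZ and of PALS1, both of PRKCI, both of LLGL2 and the first of DLG1.

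**Figure D4:**
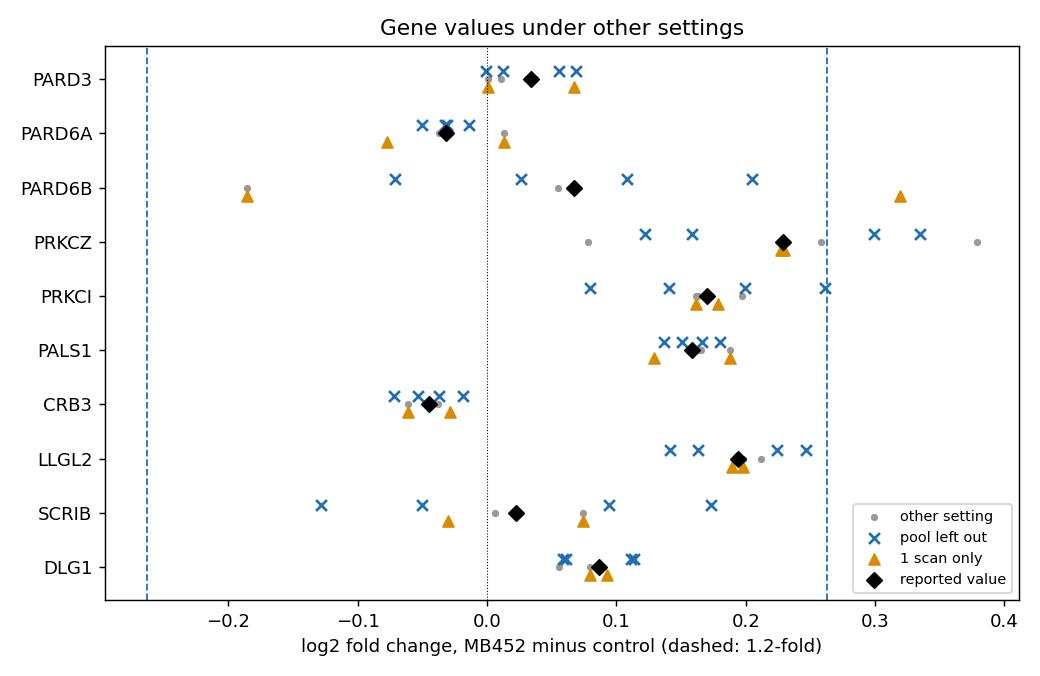
Log2 fold change of each polarity gene, MB452 minus control (horizontal axis), as reported (black diamonds) and under other ways of processing the same values: with 1 pool left out (blue crosses), with 1 scan only (orange triangles) and under the remaining settings (grey dots); dashed lines mark 1.2-fold. PALS1 (0.13 to 0.19) and LLGL2 (0.14 to 0.25) stay on one side of 0 in a narrow range, PRKCZ is on the same side but spread from 0.078 to 0.38, and PARD6B (-0.19 to 0.32) and SCRIB (-0.13 to 0.17) cross 0.

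The value of PRKCZ depended most on single control pools among the genes whose groups were apart. Without control pool A the log2 fold change of the gene was 0.34 and passed the threshold (adjusted p = 0.097), a setting in which 9.38% of all genes did, and without control pool B it was 0.12. Leaving out a pool gave 0.079 to 0.26 for PRKCI, 0.14 to 0.18 for PALS1, 0.14 to 0.25 for LLGL2 and 0.059 to 0.11 for DLG1. These ranges did not include 0. Without control pool B, 5 and not 8 of the 10 genes were above 0.

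The wider set of polarity genes was a list of 50 regulators, paralogues and partners of these complexes, of which 47 were analysed here. None of the 47 passed the threshold. Of these genes 22 had a log2 fold change above 0, with a median of -0.0043, close to that of all genes. The MB452 pools were above both controls in 14 of 47 (17.6% of all genes) and below both in 7 (19.5%). In 2, WWC1 and NUMB, the unadjusted p was under 0.05, as in 6.49% of all genes. Of these genes 4 (CDC42, YWHAB, YWHAG and YWHAQ) had a feature with the repeated value of saturated spots in the high scan on some slides or all.

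The 3 largest positive differences were those of WWC1, NUMB and SQSTM1. WWC1 (KIBRA), a scaffold and substrate of atypical protein kinase C, had -0.076 and -0.15 in control pools A and B and 0.046 and 0.11 in MB452 pools A and B. The groups were apart, with a log2 fold change of 0.19 (SE 0.061, adjusted p = 0.72). NUMB, an endocytic adaptor that the kinase phosphorylates, had -0.20 and -0.24 in the controls and -0.086 and 0.016 in the MB452 pools. Its groups were apart too, by 0.18 (SE 0.063, adjusted p = 0.73). SQSTM1, the p62 scaffold that binds the kinase, had 0.18 and 0.089 in the controls and 0.36 and 0.22 in the MB452 pools, with a difference of 0.15 (SE 0.074, adjusted p = 0.80). Its features were unlike, with differences of 0.29, past the threshold, and 0.011.

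With both scans averaged, the 3 largest negative differences were those of DLG4, GIT1 and YWHAB. DLG4, the synaptic paralogue of DLG1, had 0.018 and 0.52 in control pools A and B and 0.11 and 0.048 in MB452 pools A and B. Its log2 fold change of -0.19 (SE 0.17, adjusted p = 0.83) came with control pool B far above the other 3 pools. GIT1, an ARF GTPase-activating protein that joins SCRIB through ARHGEF7, had -0.076 and 0.17 in the controls and -0.14 and -0.12 in the MB452 pools. Control pool B was again the high one, and the difference was -0.18 (SE 0.093, adjusted p = 0.81). YWHAB, a 14-3-3 protein of the family that binds phosphorylated PAR3, had 0.0039 and -0.034 in the controls and -0.18 and -0.12 in the MB452 pools. Both of its features had the repeated value in the high scan on all 4 slides, so the difference there (-0.0075) was no measurement of YWHAB, and its mean over scans (-0.14) has no use as a size. Neither feature held the repeated value in the low scan, where the difference was -0.27, past the threshold. However, the markers EPCAM, CDH1 and KRT19, repeated in the high scan on all slides, shared 1 log2 fold change of -0.13, close to the mean for YWHAB. As their high scan difference was the same, they also shared 1 low scan difference. That low scan difference was thus close to the -0.27 of YWHAB. Whether the low scan difference is of YWHAB itself was not tested. In the low scan YWHAQ, another 14-3-3 gene with such features, had -0.23, DLG4 -0.16 and GIT1 -0.13, so the order above holds only with saturated values averaged in.

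**Figure D5:**
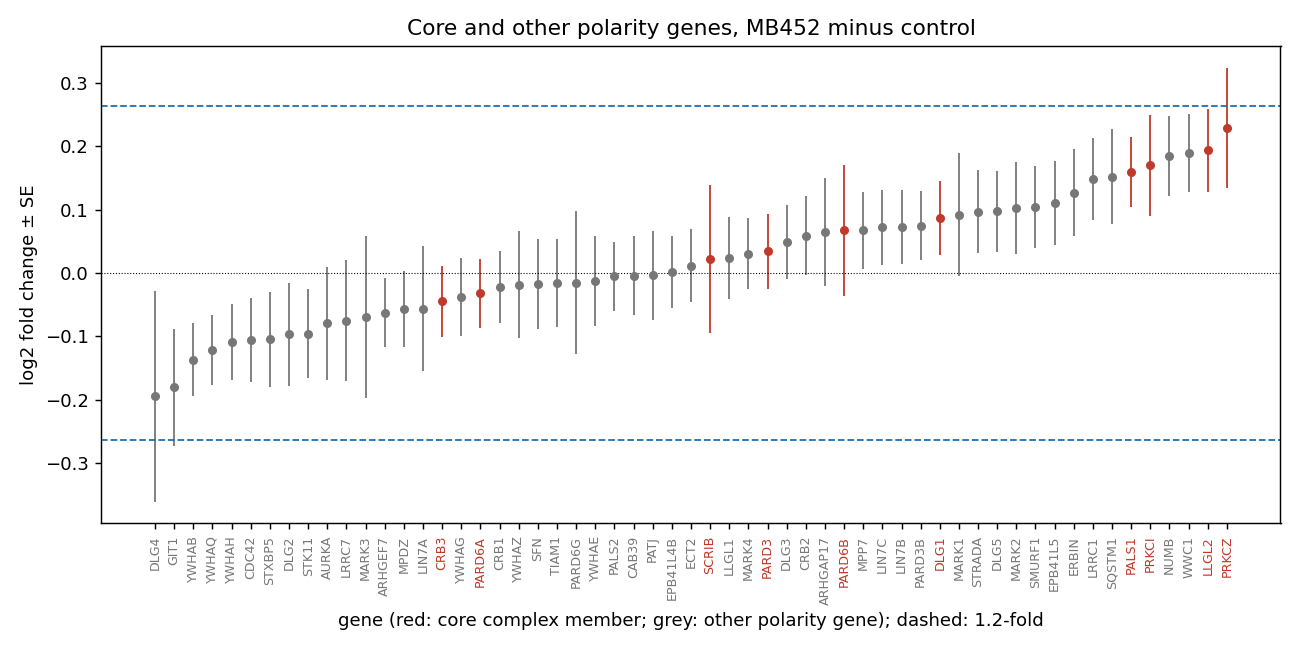
Log2 fold change of the 10 polarity complex genes (red) and of 47 other polarity genes (grey), MB452 minus control, ordered from lowest to highest, with bars of 1 standard error from limma and dashed lines at 1.2-fold. All values lie between the lines, from DLG4 at -0.19 to PRKCZ at 0.23, with those of CDC42, YWHAB, YWHAG and YWHAQ resting in part on saturated spots.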

How the data were processed

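Two-colour Agilent whole human genome arrays were read for 2 control and 2 MB452 pools. The authors quantified the scans in GenePix, removed poor spots by hand, corrected no background and normalized each array by loess in limma (no version in the submitters' processing notes). Values were deposited as log2 ratios, Cy5 (pool) over Cy3 (reference). No source used here states the base of the logarithm, which was taken as that of ratios made in limma. The methods describe the reference as RNA from all wells, whereas the short label of that channel names a control or MB452 reference.

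In limma 3.58.1 (R 4.3.3), each of the 8 columns was centred on its median (0 columns were left out), scans of a slide were averaged, and lmFit and eBayes were run without covariates on 42142 features, those with values for all 4 slides, as features and as means over the features of a gene. P-values were adjusted over all features or genes by the Benjamini-Hochberg method. Symbols came from the platform annotation, updated through the RefSeq table of GRCh38.p14 (28992 of 29033 features with 1 symbol; 97 had several and 15160 none). Probe sequences were not used here, so the transcripts that a feature detects, and any match to a paralogue, are those of the annotation only. No intensities were used, so depth over background is unknown and the number of arrays limits the precision.

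All 10 polarity genes were named, and of the wider list those past the threshold or, as none was, the 3 highest and 3 lowest. The members and lists were chosen with earlier results of these data known. The letters A and B did not pair the slides (r = -0.016 between deviations of same-letter pools). Alternatives covered the scans, centring, scaling, missing values, the variance model, the choice of feature, the threshold, a replicate block and each pool left out, and 1, the removal of features whose scans differ, was added after seeing the data.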

Additional observations from a re-analysis of the deposited data

How the results depend on the processing

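The count of polarity genes past the threshold, 0, was 1 with the low scan only (PARD6B). It was 1 with the most variable feature of a gene (PRKCZ) and 2 with no minimum fold (PALS1 and LLGL2). The count of features, 1, was 0 under the replicate block, 0 under a random block for slides, 0 at a fold over 1.5, 0 at an adjusted p under 0.05 and 0 without features whose scans differ, a setting that removes the PRKCZ feature itself. It was 3 with no minimum fold. With the replicate block the PRKCZ feature had an unadjusted p just over 0.05 (adjusted p = 0.91) at an unchanged difference of 0.38, and no call of a polarity gene changed. For the wider list, 0 became 2 with the low scan (YWHAB and ERBIN). It became 1 with the low scan in place of saturated high scan values (YWHAB). With the most variable feature it was 1 (SQSTM1), and with no minimum fold it was 2. For all genes, 343 became 518 with the low scan for saturated features, 583 with the most variable feature, 204 without features whose scans differ, 1166 with no minimum fold, 7 at a fold over 1.5 and 0 at an adjusted p under 0.05. With a pool left out it was 375 to 1685, the highest lacking control pool A, and 542 lacking control pool B. Signs turned for PARD6A in the high scan, also with low scan values for saturated features (0.014), for PARD6B in both of these (-0.19), for the first PARD3 feature in both (-0.029) and for SCRIB in the low scan (-0.030). With a pool left out, ranges that crossed 0 were -0.0011 to 0.069 for PARD3, -0.090 to 0.11 for its first feature, -0.071 to 0.20 for PARD6B, -0.13 to 0.17 for SCRIB, -0.063 to 0.17 for the second DLG1 feature and -0.0052 to 0.14 for the third. PRKCZ, PRKCI, PALS1, LLGL2 and DLG1 were positive and CRB3 negative in all 15 alternatives. The causes were not tested, beyond the smaller sets of features or pools that some settings use.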
